A study of Mus musculus with 6 samples.

Results

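The genes described here encode the machinery that copies DNA: the factors that license replication origins, the moving fork with its polymerases, clamp and ligase, and the enzymes that supply deoxynucleotides. The set holds 37 named genes, and its members are all array probes whose platform gene symbol is one of these genes, which gave 72 of 45281 probes. Cardiac cells positive for the myeloid integrin CD11b and negative for the neutrophil antigen Ly6G (CD11b+Ly6G-), among which are macrophages and monocytes, were isolated from outbred ICR mice 3 days after the left anterior descending coronary artery had been tied. The P14 group was infarcted at day 14 after birth (3 arrays) and the P1 group at day 1 (3 arrays), with material of mixed sex in both and no uninjured heart in the comparison. The comparison asks how cardiac macrophages of these ages differ after the same injury. The labels do not say whether the arrays came from separate animals or from pools, so every p-value here is set against a spread among 3 arrays that may be technical alone.

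Before S phase, the origin recognition complex, Cdc6 and Cdt1 load the MCM helicase onto origins, and geminin blocks loading once synthesis has begun. Cyclin E with its kinase and the E2F transcription factors drive entry into S phase, after which GINS joins the helicase, primase and polymerases copy the strands, RPA coats single-stranded DNA, and PCNA, placed by the RFC clamp loader, tethers the polymerases. Many of these genes are E2F targets whose transcripts rise at the G1/S border, and their levels are widely read as a sign of cycling cells. Macrophages of the heart can renew by local division, whereas recruited monocytes mostly arrive as cells that have left the cycle.

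All 6 arrays shared a median intensity of 121, with 18901 to 18921 probes brighter than a background floor of 127. Both follow from the quantile normalization of the deposited values and say nothing of array quality. The ages parted on the leading principal component (57.7% of the variance), while the second (16.1%) set P14 replicate 3 at -20.1 apart from P14 replicates 1 and 2 at 10.5 and 7.51, with the P1 arrays between -2.31 and 3.06. Of the 10 genes of the macrophage and gate list 9 had a probe, and all 9 passed the floor. Ly6g was not on the list, so the negative side of the gate was not examined. The summed intensity of the 9 genes (brightest kept probe of each) was 56034 to 61096 on P14 arrays and 59980 to 61202 on P1 arrays. Members of that list moved in opposite directions, with Csf1r, the receptor for the macrophage growth factor, lower in P14 (-0.82, adjusted p = 0.00267) and Lyz2 (0.54, adjusted p = 0.00426) and Ptprc (0.42, adjusted p = 0.0272) higher. Several other lists of cell markers moved with age. Over all probes tested, 8.23% were lower and 8.26% higher in P14 at an adjusted p under 0.05. Of 19 kept probes for neutrophil and granulocyte precursor genes, 13 were lower and 1 higher in P14, with summed intensities of 9753 to 13617 in P14 and 17128 to 24494 in P1 (Cxcr2 and Mmp8 stayed below the filter). These 19 include an Mpo probe that the filter kept through the P1 arrays alone. Of 18 kept cardiomyocyte probes 9 were lower in P14 and 0 higher (sums of 4088 to 4357 in P14 and 7066 to 13685 in P1, with Myh7 below the filter), and of 13 resident macrophage probes 7 were lower and 1 higher (sums of 19466 to 21579 in P14 and 34996 to 41031 in P1). Of 15 monocyte probes 0 were lower and 9 higher in P14, with sums of 11561 to 20589 in P14 and 12476 to 16069 in P1. Of 14 fibroblast probes 3 were lower in P14 and 0 higher (sums of 3180 to 3650 in P14 and 3597 to 5988 in P1, with Postn below the filter). Of 3 kept lymphocyte and NK probes 2 were lower, both of the B-cell gene Cd79b (sums of 404 to 489 in P14 and 757 to 804 in P1), while 7 genes of that list, Cd3g, Cd4, Cd8a, Klrb1c, Ms4a1, Ncr1 and Nkg7, stayed below the filter. Few probes of the remaining lists were called: 0 of 14 for endothelium, 1 of 9 for erythroid cells (lower) and 1 of 5 for dendritic cells (higher). The erythroid probes had mean deviations of -0.52, -0.28 and 0.53 on P14 replicates 1, 2 and 3. On P1 replicates 1, 2 and 3 these were -0.26, 0.24 and 0.29. The part of these cell types in the replication values below was not tested, and in bulk RNA fewer cells of a type and less RNA per cell cannot be told apart.

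Some probes of the replication genes were lower in P14 at the threshold and none was higher. Of the 72 probes, 55 exceeded the floor on at least 3 arrays and were tested, and they covered 35 of the 37 genes. Of these 55, 10 probes for 8 genes were lower in P14 at a limma adjusted p under 0.05 and 0 were higher. Over all 19091 probes tested, 16.5% were called, 8.23% as lower and 8.26% as higher in P14, against 18.2% lower and 0% higher among the replication probes. The 8.23% was not matched for brightness. Over all probes the share called lower was 4.30% under a mean log2 of 8, 12.5% from 8 to 10 and 14.4% over 10. Among the replication probes 1 of 21, 8 of 27 and 1 of 7 were lower in these classes. At an unadjusted p under 0.05, 2 more replication probes were lower and 4 were higher, and across the alternative settings the count of higher calls stayed at 0 except for 1 probe of Rrm2 without P1 replicate 1. The genes were Tyms, Tk1 and Rrm1 of nucleotide supply, Mcm6 and Mcm7 of the licensed helicase, Gins2, Fen1 and Rpa3. Their differences were small, between 1.18-fold and 1.52-fold lower in P14. The 6 of these genes with more than 1 kept probe each also had a kept probe that did not pass. With the kept probes of each gene averaged, 3 of 35 replication genes were lower, near the share over all genes (946 of 10501). The count of lower probes was 6 without P14 replicate 1, 5 without P14 replicate 2 and 4 without P1 replicate 3, while the lower calls over all probes, 1571 with every array, numbered 843, 832 and 686 without the same arrays.

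Over all tested probes of the set the differences lay on both sides of 0. The median log2 difference of the 55 probes (P14 minus P1) was -0.04, against -0.0022 over all probes tested, and 32 of the 55 lay below 0 (58.2%, against 50.6% of all probes). The P14 arrays lay wholly below the P1 arrays for 12 of the 55 probes and wholly above for 3, while over all probes these shares were 18.4% and 17.4%. The 45 probes that did not pass lay between -0.36 and 0.38, 22 below 0 and 23 above, a balance that the removal of the 10 lower probes helps to set. For 36 of the 45 the 95% interval lay within 0.5 of 0 on the log2 scale, and for the other 9 it reached further, so that a difference of that size lies inside or at the edge of what those probes allow. Background was left in the intensities, which understates differences of dim probes. A narrow interval of a dim probe therefore does not bound the difference in transcript.

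**Figure D1:**
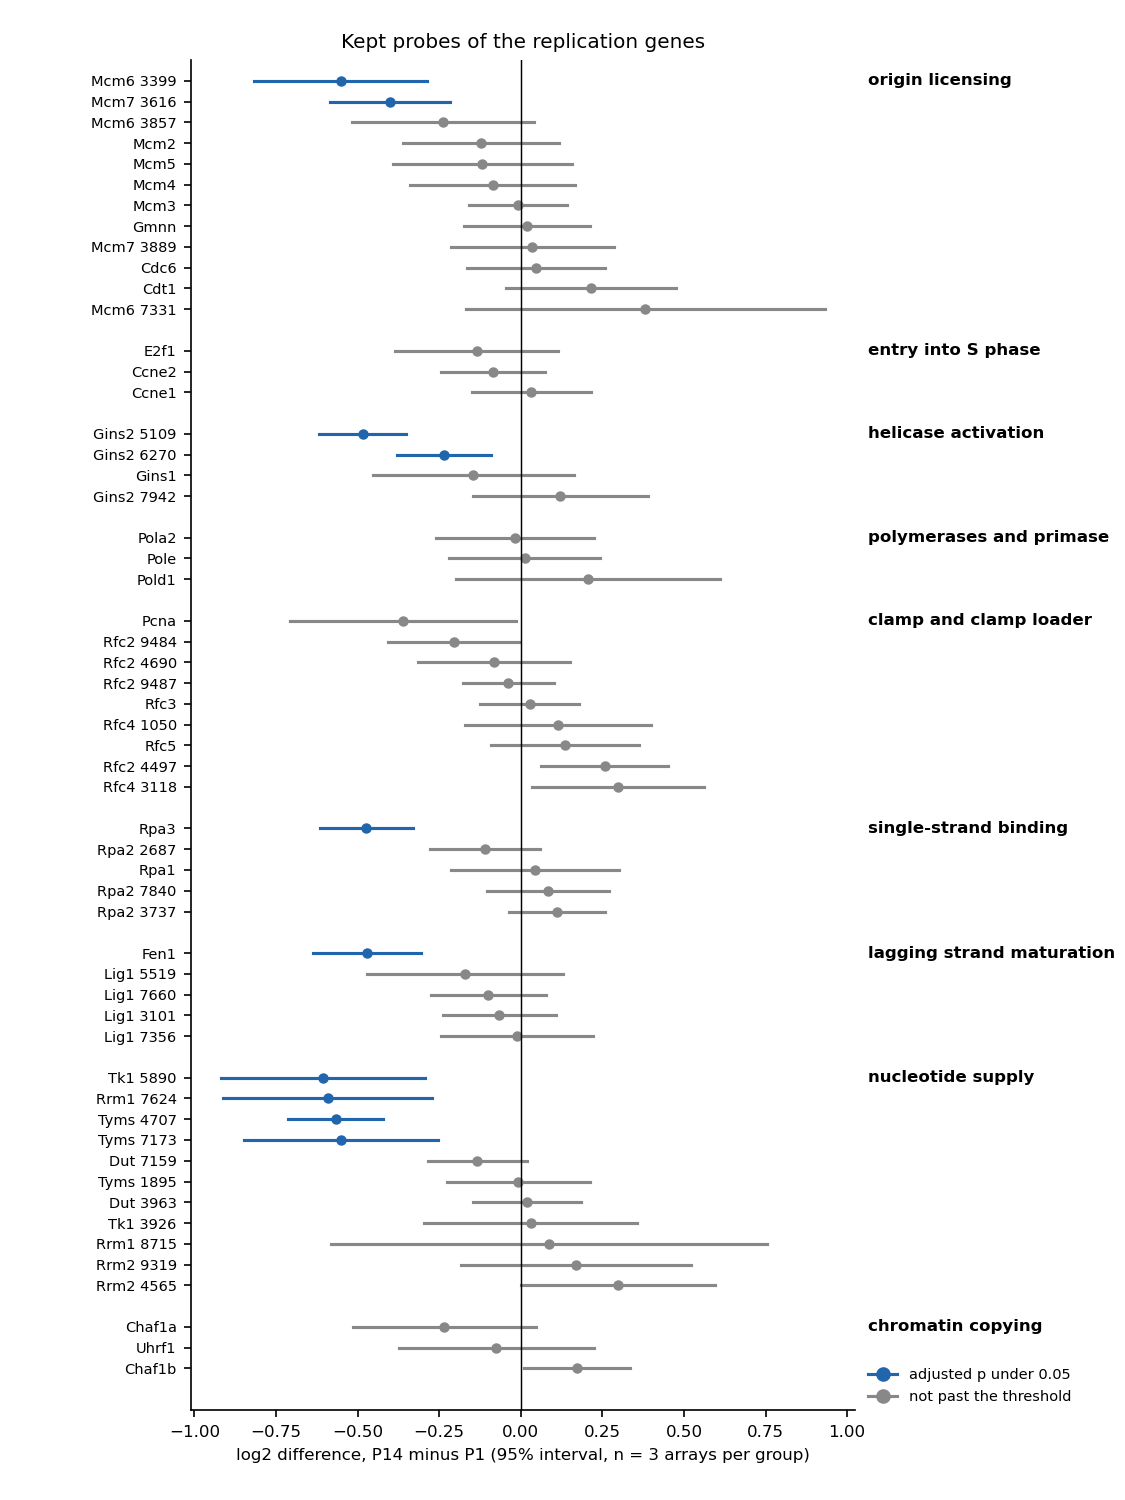
Log2 difference (P14 minus P1, x axis) with its 95% interval for the 55 tested probes of the replication genes, grouped by role, with n = 3 arrays per group. Where a gene has several probes, the last digits of the probe identifier follow its name. The 10 probes past the threshold (blue) all lie to the left of 0, between -0.61 and -0.24, and the others (grey) lie on both sides.

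The promoters of 3 subunits of the MCM helicase and of Tyms are shown because the first set carries the letters bound by E2F and the last carries none, although both Tyms and 2 of the subunits had probes lower in P14. The sequences are RefSeq's for GRCm38.p6, from 250 bases before to 50 after the start site, written on the strand of the gene, and capitals mark the letters TTTCGCGC, TTTGGCGC, TTTCCCGC or TTTGCCGC on either strand, with overlapping matches run together. The Mcm6 promoter lies at chr1:128359656-128359955 (minus strand) and holds 3 matches. The Mcm7 promoter shown is the upstream one of 2, at chr5:138171834-138172133 (minus strand), with 2 matches, while the other, at chr5:138171217-138171516, holds 0. The Mcm5 promoter at chr8:75109259-75109558 (plus strand) also holds 2, and the Tyms promoter at chr5:30073576-30073875 (minus strand) holds 0.
Mcm6: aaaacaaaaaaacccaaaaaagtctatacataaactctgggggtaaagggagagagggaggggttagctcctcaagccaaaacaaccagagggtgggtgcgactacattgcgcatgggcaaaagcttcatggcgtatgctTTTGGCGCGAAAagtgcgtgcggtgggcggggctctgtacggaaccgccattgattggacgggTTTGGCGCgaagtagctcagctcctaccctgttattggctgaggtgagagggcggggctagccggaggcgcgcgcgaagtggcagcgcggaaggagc
Mcm7: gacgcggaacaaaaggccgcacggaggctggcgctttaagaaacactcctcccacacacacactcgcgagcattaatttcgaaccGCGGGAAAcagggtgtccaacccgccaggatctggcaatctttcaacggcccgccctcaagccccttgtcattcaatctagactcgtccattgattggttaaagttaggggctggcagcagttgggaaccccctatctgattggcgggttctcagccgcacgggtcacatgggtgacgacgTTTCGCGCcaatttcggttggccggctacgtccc
Mcm5: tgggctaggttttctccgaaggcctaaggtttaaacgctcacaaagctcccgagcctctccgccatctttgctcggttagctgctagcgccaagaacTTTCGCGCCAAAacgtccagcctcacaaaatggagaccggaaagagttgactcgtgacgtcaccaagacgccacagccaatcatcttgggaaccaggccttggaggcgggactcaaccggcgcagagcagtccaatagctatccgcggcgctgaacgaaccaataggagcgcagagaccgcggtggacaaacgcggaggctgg
Tyms: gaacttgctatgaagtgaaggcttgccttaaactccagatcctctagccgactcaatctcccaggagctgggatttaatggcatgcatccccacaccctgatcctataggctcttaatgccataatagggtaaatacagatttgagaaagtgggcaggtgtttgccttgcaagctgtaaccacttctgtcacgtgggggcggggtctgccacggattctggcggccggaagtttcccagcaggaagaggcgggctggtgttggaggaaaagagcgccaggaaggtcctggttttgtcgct

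Of 35 promoters given for 30 genes of the set, 11 held at least 1 of these letters (31.4%), against 744 of 32851 promoters of the same length (2.26%). Among the 7 genes with both a promoter and a probe lower in P14, 2 had a match, Mcm6 and, in 1 of its 2 promoters, Mcm7, and among the other 23 genes 9 had one. A match describes the letters alone, and the absence of a match says only that they are not in this window.

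Among the licensing genes, 2 of 12 tested probes were lower in P14 (16.7%, against 8.23% of all probes) and 0 higher, with a median of -0.05. Mcm6, a subunit of the helicase ring, had log2 intensities of 9.18, 9.04 and 8.88 on the P14 arrays with probe ILMN_2803399, against 9.74, 9.37 and 9.65 on the P1 arrays. The groups did not overlap, and the log2 difference was -0.55 ± 0.115 (SE, n = 3 per group, limma adjusted p = 0.0178), a 1.47-fold lower signal in P14. The call was lost without P14 replicate 2 (adjusted p = 0.0553) and without P1 replicate 3 (0.0664). The other Mcm6 probes did not repeat it: ILMN_1233857 gave 9.63, 9.45 and 9.52 in P14 against 9.64, 9.61 and 10.05 in P1 (-0.24 ± 0.120, adjusted p = 0.223). ILMN_1217331 gave 10.18, 10.05 and 9.98 in P14 against 9.06, 9.93 and 10.08 in P1 (0.38 ± 0.238, adjusted p = 0.329). On that probe P1 replicate 1 alone stood low, while on the probe that passed the same array was the highest of all 6.

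Mcm7, a further subunit of the ring, had 8.39, 8.21 and 8.12 in P14 against 8.64, 8.65 and 8.62 in P1 with probe ILMN_1213616. The groups were apart, with little spread among the P1 arrays, and the log2 difference was -0.40 ± 0.0793 (adjusted p = 0.0154), or 1.32-fold lower in P14. Without P14 replicate 2 or P1 replicate 3 its adjusted p was 0.0530 and 0.0511. Its other probe, ILMN_2673889, overlapped between ages, with 7.37, 7.68 and 7.67 in P14 and 7.55, 7.67 and 7.39 in P1 (0.04 ± 0.108, adjusted p = 0.867).

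The remaining subunits of the ring did not pass. Mcm4 had 11.42, 11.18 and 11.47 in P14 against 11.61, 11.27 and 11.44 in P1 (-0.09 ± 0.109, adjusted p = 0.658), and its 95% interval ran from -0.34 to 0.17. Mcm2 (-0.12), Mcm3 (-0.01) and Mcm5 (-0.12) had adjusted p-values of 0.491, 0.958 and 0.562, and for these 3 probes the interval never reached below -0.39. Across Mcm2, Mcm4 and Mcm5 P1 replicate 1 was the highest of the 6 arrays, and the P1 arrays were spread more widely than the step between ages.

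The loading factors overlapped between ages. Cdt1, which brings the helicase to origins, had 10.64, 10.52 and 10.81 in P14 against 10.63, 10.25 and 10.44 in P1 (0.21 ± 0.113, adjusted p = 0.243). Gmnn, which encodes the Cdt1 inhibitor geminin, lay close to the floor at 6.96, 7.24 and 7.04 in P14 against 7.09, 7.001 and 7.09 in P1 (0.02 ± 0.0835, adjusted p = 0.914). Cdc6, the loader ATPase, gave 0.05 ± 0.0915 (adjusted p = 0.789) with 1 kept probe, and its other 3 probes were below the floor on every array.

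The drivers of S-phase entry did not pass either. E2f1, the transcription factor of the G1/S programme, had 9.67, 9.52 and 9.94 in P14 against 9.83, 9.78 and 9.92 in P1 (-0.14 ± 0.108, adjusted p = 0.455). The highest P14 array stood above every P1 array. The cyclin E genes Ccne1 (0.03 ± 0.0793, adjusted p = 0.830) and Ccne2 (-0.08 ± 0.0692, adjusted p = 0.465) were dim at both ages, with values of 7.05 to 7.48.

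Of the GINS complex, which turns the loaded MCM ring into an active helicase, Gins2 was lower in P14 by 2 of its 3 probes. Probe ILMN_1245109 read 7.85, 7.84 and 7.83 in P14 against 8.30, 8.35 and 8.32 in P1, the tightest replicates among the 10 lower probes, with a log2 difference of -0.48 ± 0.0575 (adjusted p = 0.00288) and a 1.40-fold lower signal in P14. This call held in the 7 other settings run on this probe with all arrays and without any 1 array, with an adjusted p of 0.0165 at most, whereas the mean of the 3 Gins2 probes did not pass (adjusted p = 0.0623). Probe ILMN_1246270 read 8.73, 8.74 and 8.76 in P14 against 9.03, 9.005 and 8.91 in P1 (-0.24 ± 0.0628, adjusted p = 0.0401), and this smaller difference was lost when any array was left out (adjusted p up to 0.110). The third probe, ILMN_2547942, read 8.88, 8.64 and 9.12 in P14 against 8.79, 8.69 and 8.79 in P1 and did not pass (0.12 ± 0.116, adjusted p = 0.541). Gins1 had 8.55, 8.93 and 8.54 in P14 against 8.69, 8.72 and 9.04 in P1 (-0.15 ± 0.133, adjusted p = 0.522).

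None of the polymerase and primase probes passed. Pold1, the catalytic subunit of the lagging strand polymerase delta, had 9.52, 9.22 and 9.76 in P14 against 9.60, 9.001 and 9.28 in P1, with overlap between the ages (0.21 ± 0.175, adjusted p = 0.486). Pole, its counterpart for the leading strand, gave 0.01 ± 0.0999 (adjusted p = 0.955), and Pola2, a subunit of the priming polymerase, -0.02 ± 0.105 (adjusted p = 0.940). Pola1 and Prim1, the catalytic subunits of polymerase alpha and of primase, had no probe above the floor on at least 3 arrays. Pola1 read 6.74 to 6.82 on all 6 arrays and Prim1 6.81 to 7.09.

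Pcna, the sliding clamp, was apart between the ages without passing. It had 7.56, 7.71 and 7.74 in P14 against 8.40, 7.82 and 7.87 in P1, and the log2 difference was -0.36 ± 0.150 (adjusted p = 0.142, 95% interval from -0.71 to -0.02). P1 replicate 1 stood highest, and P1 replicates 2 and 3 lay nearer to the P14 arrays than to it.

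The clamp loader subunits ran in both directions and none passed. The 4 probes of Rfc2 disagreed: ILMN_2894497 read 10.95, 11.07 and 11.25 in P14 against 10.83, 10.85 and 10.81 in P1, with P14 wholly above P1 (0.26 ± 0.0843, adjusted p = 0.0743). ILMN_2749484 read 9.86, 10.01 and 9.82 in P14 against 10.22, 9.96 and 10.12 in P1 (-0.21 ± 0.0873, adjusted p = 0.150). ILMN_2749487 read 9.68, 9.72 and 9.78 in P14 against 9.77, 9.75 and 9.76 in P1 (-0.04 ± 0.0604, adjusted p = 0.732). The last, ILMN_2424690, lay at 8.81, 9.18 and 9.01 in P14 against 9.01, 9.07 and 9.17 in P1, again with overlap (-0.08 ± 0.101, adjusted p = 0.650). Rfc4 gave 0.30 ± 0.114 (adjusted p = 0.115) and 0.11 ± 0.124 (adjusted p = 0.593) with its 2 probes, Rfc5 gave 0.14 ± 0.0982 (adjusted p = 0.401) and Rfc3 0.03 ± 0.0657 (adjusted p = 0.828).

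Within the RPA trimer, which protects single-stranded DNA, the smallest subunit gene alone passed. Rpa3 had 9.18, 9.27 and 9.27 in P14 against 9.75, 9.68 and 9.70 in P1, with no overlap and little spread at either age. Its log2 difference was -0.47 ± 0.0616 (adjusted p = 0.00393), a 1.39-fold lower signal in P14, and the call held in all 9 other settings with all arrays and without any 1 array (adjusted p of 0.0195 at most). Rpa1, the large subunit, overlapped at 11.42, 11.20 and 11.36 in P14 against 11.49, 11.08 and 11.28 in P1 (0.04 ± 0.112, adjusted p = 0.840). The 3 probes of Rpa2 gave -0.11, 0.08 and 0.11. ILMN_2602687 read 7.74, 7.77 and 7.91 in P14 against 7.84, 7.94 and 7.96 in P1, and ILMN_2597840 read 7.36, 7.19 and 7.40 in P14 against 7.27, 7.30 and 7.14 in P1. ILMN_2543737, with 7.28, 7.21 and 7.14 in P14 against 7.09, 7.10 and 7.11 in P1, had P14 above P1 by a margin under its own spread. The adjusted p-values of these 3 Rpa2 probes were 0.360, 0.548 and 0.286. The difference between subunits was not tested.

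Fen1, the nuclease that trims the flap of each Okazaki fragment, had 10.01, 9.95 and 10.05 in P14 against 10.56, 10.49 and 10.37 in P1. The groups were clearly apart, and the log2 difference was -0.47 ± 0.0714 (adjusted p = 0.00629), a 1.39-fold lower signal in P14. The call held in all 9 other settings with all arrays and without any 1 array, with an adjusted p of 0.0266 at most. Lig1, the ligase that seals the fragments after Fen1, had 4 kept probes, all with a log2 difference below 0 (-0.17, -0.10, -0.07 and -0.01) and none past the threshold (adjusted p of 0.428, 0.437, 0.622 and 0.957).

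Nucleotide supply held the most lower probes of any role, 4 of 11 (36.4%, against 8.23% of all probes), with 0 higher. Of these 4, 2 were probes of Tyms. The median of the role was -0.007, with 5 of 11 probes above 0. Helicase activation had the larger share, 2 of 4, but both were probes of 1 gene, Gins2. Tyms, thymidylate synthase, had 9.51, 9.53 and 9.57 in P14 against 10.07, 10.07 and 10.18 in P1 with probe ILMN_2484707. The log2 difference was -0.57 ± 0.0633 (adjusted p = 0.00254), or 1.48-fold lower in P14, and the call held in the 8 other settings run on this probe with all arrays and without any 1 array (adjusted p of 0.0143 at most). Probe ILMN_1247173 gave a like difference, with 7.55, 7.77 and 7.28 in P14 against 8.10, 7.94 and 8.22 in P1 (-0.55 ± 0.129, adjusted p = 0.0258), and lost its call without P14 replicate 1, P1 replicate 1 or P1 replicate 3 (0.0905 at most) and with no filter (0.0526). The last probe, ILMN_2441895, straddled the floor, with 6.98, 6.73 and 7.04 in P14 against 6.90, 7.02 and 6.86 in P1 (-0.01 ± 0.0950, adjusted p = 0.973).

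Tk1, the S-phase thymidine kinase of the salvage route, had 8.84, 8.89 and 9.35 in P14 against 9.56, 9.59 and 9.75 in P1 with probe ILMN_2605890. The groups were apart, although P14 replicate 3 stood closer to P1 than to the other P14 arrays, and the log2 difference was -0.61 ± 0.135 (adjusted p = 0.0224), or 1.52-fold lower in P14. The call was lost without P14 replicate 1, P14 replicate 2 or P1 replicate 3 (0.0701, 0.0740 and 0.0803). Its other kept probe, ILMN_2893926, read 7.18, 7.39 and 7.79 in P14 against 7.42, 7.49 and 7.37 in P1 (0.03 ± 0.142, adjusted p = 0.919), and P14 replicate 3 was again the highest P14 array.

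Rrm1, the large subunit of ribonucleotide reductase, had 8.76, 8.82 and 8.78 in P14 against 9.67, 9.06 and 9.41 in P1 with probe ILMN_2977624. P14 was tight and P1 wide, and the log2 difference was -0.59 ± 0.139 (adjusted p = 0.0264), or 1.51-fold lower in P14. The adjusted p was 0.0556 with no filter and reached 0.0838 without P1 replicate 3, and the call was also lost without any 1 P14 array. Probe ILMN_1258715 of the same gene read 7.99, 8.29 and 8.03 in P14 against 8.71, 7.38 and 7.95 in P1 (0.09 ± 0.289, adjusted p = 0.878), the widest spread within P1 of any replication probe. Rrm2, the small subunit whose supply limits the enzyme in S phase, ran the other way without passing: 7.89, 8.22 and 7.98 in P14 against 7.99, 7.58 and 7.63 in P1 with probe ILMN_2714565 (0.30 ± 0.129, adjusted p = 0.156), and 0.17 ± 0.152 (adjusted p = 0.517) with ILMN_2819319. Without P1 replicate 1 the first of these probes had a log2 difference of 0.43 and an adjusted p of 0.0456. Dut, which clears dUTP, had a probe at 7.23, 7.11 and 7.12 in P14 against 7.24, 7.34 and 7.28 in P1 (-0.13 ± 0.0657, adjusted p = 0.214) and another at 7.02, 7.16 and 7.18 in P14 against 7.03, 7.15 and 7.11 in P1 (0.02 ± 0.0716, adjusted p = 0.890).

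**Figure D2:**
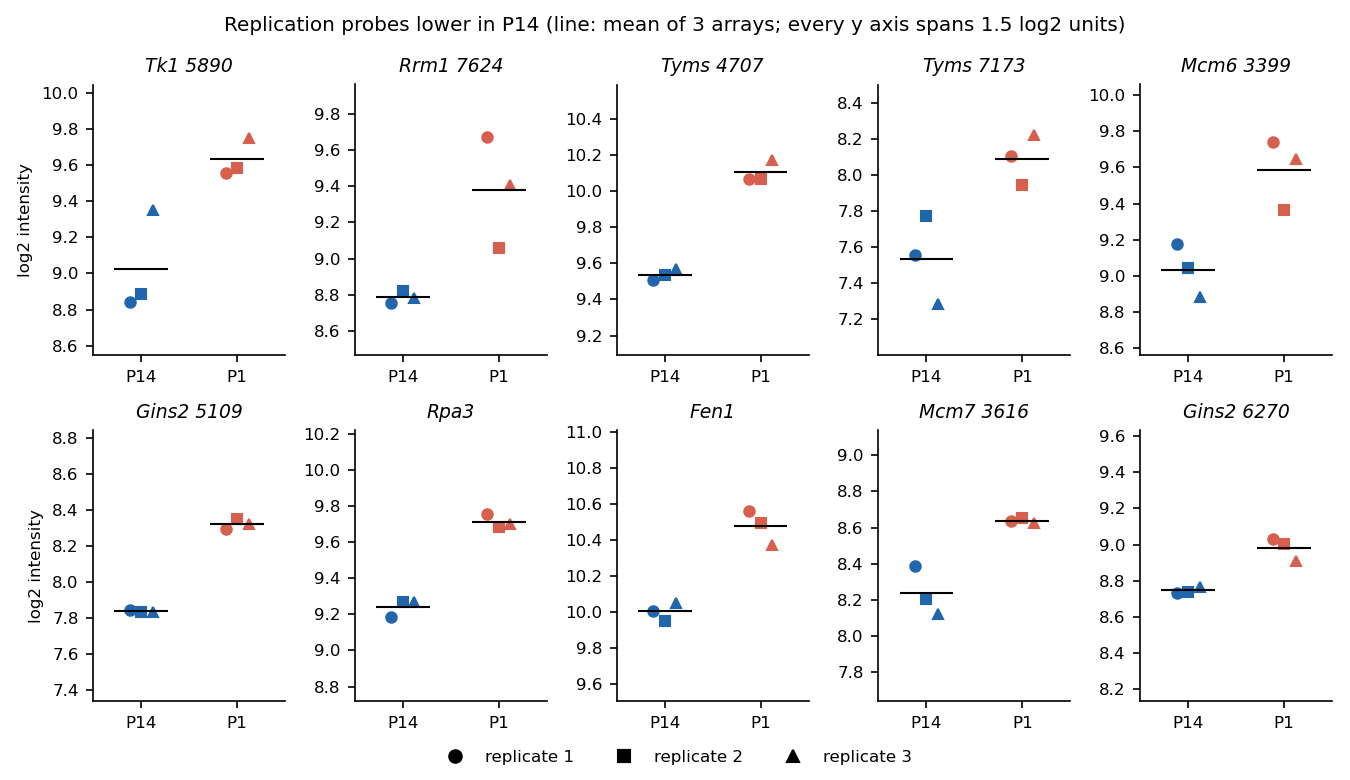
Log2 intensity (y axis, each spanning 1.5 units) on every array for the 10 replication probes lower in P14, with P14 left of P1, symbols for the replicate number and a line at the mean of 3 arrays. In all 10 panels the 3 P14 points lie below the 3 P1 points. The probes of Gins2, Rpa3, Fen1 and the brighter called Tyms probe show the least spread.

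The genes that rebuild chromatin behind the fork did not pass. Uhrf1, which guides maintenance DNA methylation, had 10.52, 10.36 and 10.68 in P14 against 10.80, 10.34 and 10.65 in P1 (-0.07 ± 0.129, adjusted p = 0.755). The subunits of the histone chaperone CAF-1 lay on opposite sides, with Chaf1a at -0.23 ± 0.122 (adjusted p = 0.237) and Chaf1b at 0.17 ± 0.0705 (adjusted p = 0.138).

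Agreement between probes of a gene was limited. Of the 12 genes with more than 1 kept probe, 8 had probes on both sides of 0. All 6 of the genes with several probes that included a lower one, namely Mcm6, Mcm7, Gins2, Tyms, Tk1 and Rrm1, also had a kept probe that did not pass, and Tyms and Gins2 were the genes with 2 probes that passed. Fen1 and Rpa3 rest on a single probe each. With the kept probes of each gene averaged, 3 of 35 replication genes were lower in P14, near the share over all genes (946 of 10501). These were Tyms (-0.38 ± 0.0534, adjusted p = 0.00663), Fen1 (adjusted p = 0.00661) and Rpa3 (adjusted p = 0.00405). Gins2 (-0.20, adjusted p = 0.0623) and Mcm7 (-0.18, adjusted p = 0.0789) did not pass. The probe sequences were not used here, so which transcripts the probes of one gene read was not tested.

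**Figure D3:**
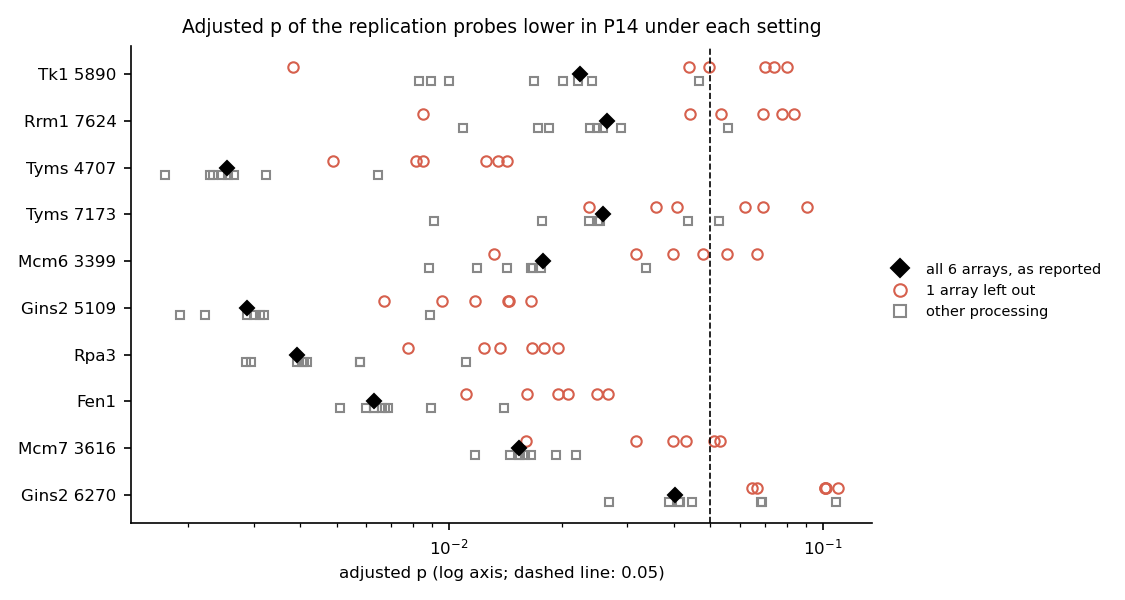
Adjusted p (x axis, log scale) of the 10 replication probes lower in P14 with all 6 arrays as reported (black), with 1 array left out (red circles) and under other processing (grey squares), with the threshold of 0.05 dashed. Rpa3, Fen1, ILMN_2484707 of Tyms and ILMN_1245109 of Gins2 stay left of the line at every point plotted, and the other 6 cross it when at least 1 array is left out.

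The values by array follow in part from how the probes were called. The mean deviation of the 10 lower probes was -0.25, -0.24 and -0.25 on P14 replicates 1, 2 and 3, against 0.30, 0.18 and 0.27 on P1 replicates 1, 2 and 3, and they were chosen for this separation. The other 45 probes, chosen for the lack of it, averaged -0.02, -0.03 and 0.07 in P14 against 0.07, -0.10 and 0.01 in P1, with the highest means on P1 replicate 1 and P14 replicate 3. Of the 55 probes, 20 were highest on P1 replicate 1 and 17 on P14 replicate 3, while 16 were lowest on P14 replicate 1 and 16 on P1 replicate 2. Over all probes tested, 15.9% were highest on P1 replicate 1 and 19.5% on P14 replicate 3. Of the same probes, 18.0% were lowest on P14 replicate 1 and 17.4% on P1 replicate 2. In cardiomyocyte markers P1 replicates 1, 2 and 3 had mean deviations of -0.04, 0.68 and 0.44. Without P1 replicate 1, 2 or 3 the count of lower replication probes was 8, 9 and 4. Over all probes tested the lower calls, 1571 with every array, numbered 1150, 1120 and 686 without the same arrays. The part of cardiomyocyte RNA in these counts was not tested.

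**Figure D4:**
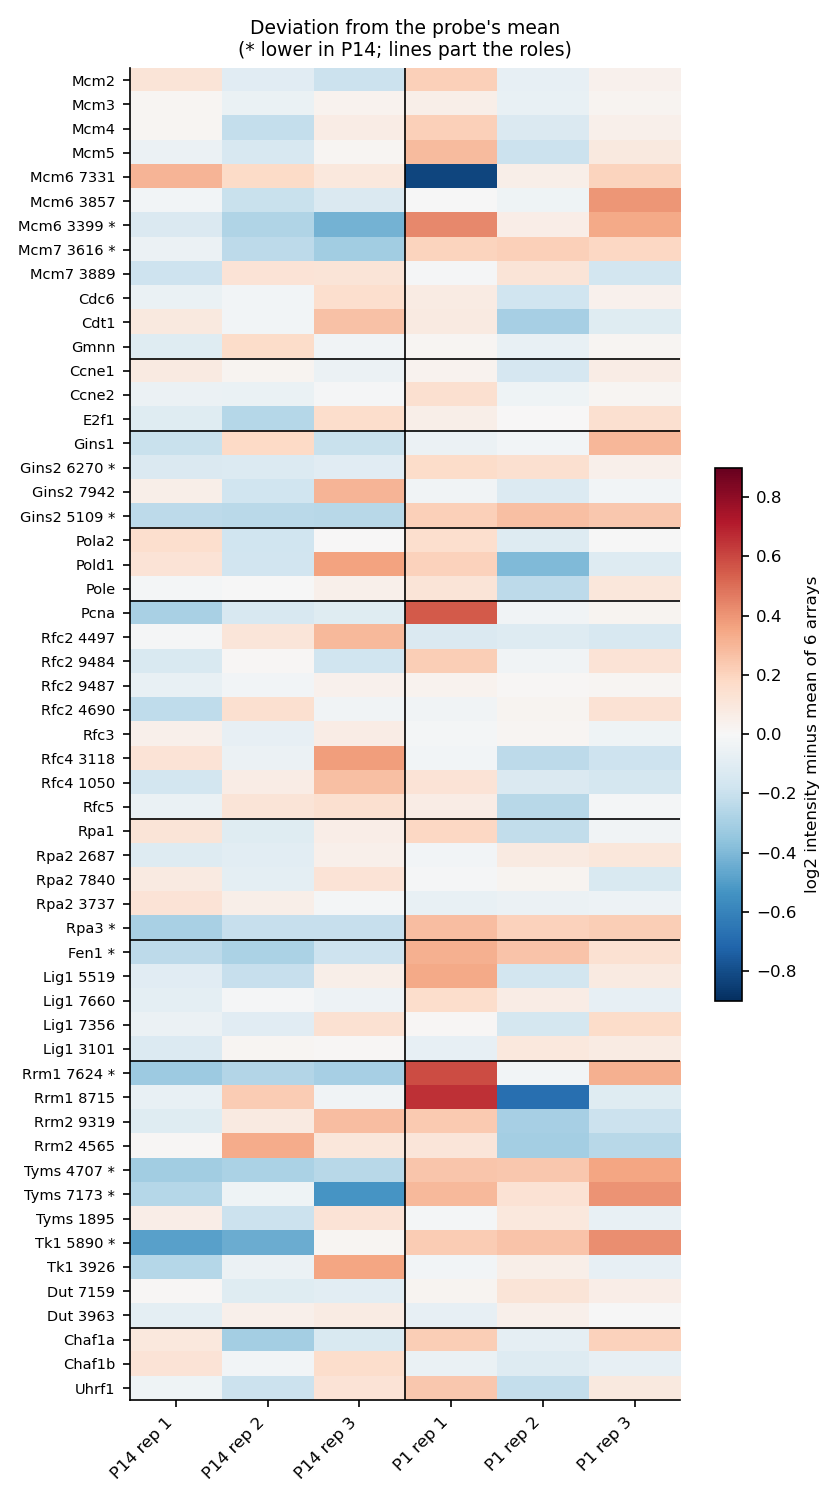
Log2 intensity minus the mean of the 6 arrays (colour, red above and blue below the mean) for the 55 tested probes (rows, parted by role) on each array (columns, P14 then P1). Rows with an asterisk are the 10 lower probes, blue in P14 and red in P1, and among the other rows P1 replicate 2 is often blue and P14 replicate 3 often red.

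The wider pathway was read from further lists with no gene in common with the set. Of 48 kept probes for other replication factors, 9 were lower and 1 higher in P14 (18.8% and 2.08%, against 8.23% and 8.26% of all probes, median -0.06). Orc6, a subunit of the origin recognition complex, had 9.02, 9.13 and 8.85 in P14 against 9.71, 9.69 and 9.54 in P1 (-0.65 ± 0.0897, adjusted p = 0.00487), and the lower genes also included Orc5, the clamp loader subunit Rfc1, the checkpoint mediator Clspn, Tipin and Rnaseh2b. The exception was Pole4, a small subunit of polymerase epsilon, with 8.64, 8.54 and 8.63 in P14 against 7.98, 7.99 and 7.93 in P1 (0.64 ± 0.0621, adjusted p = 0.00167).

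The other supporting lists held calls in both directions, except the repair list. Of 45 probes for other genes of nucleotide supply, 3 were lower and 4 higher in P14 (6.67% and 8.89%, near the 8.23% and 8.26% of all probes), led by Mthfd2, a mitochondrial folate enzyme (0.54 ± 0.114, adjusted p = 0.0181), and by Dguok, a mitochondrial deoxynucleoside kinase (-0.50 ± 0.120, adjusted p = 0.0291). Of 18 probes for other chromatin copying genes 2 were lower and 2 higher (11.1% each, also near the shares over all probes), with Rbbp4 (0.56 ± 0.0876) and Supt16 (0.51 ± 0.123), both histone handling genes, at adjusted p-values of 0.00706 and 0.0292. Of 58 probes for other G1/S regulators 6 were lower and 2 higher (10.3% and 3.45%, median 0.018), the lower share being near that of all probes. The largest difference was that of Rgcc, a regulator of the cell cycle, at 1.15 ± 0.176 (adjusted p = 0.00645). Cdk4, the cyclin D kinase, had probes called in opposite directions (0.51 ± 0.126, adjusted p = 0.0317, and -0.43, adjusted p = 0.0163). Of 23 probes for S-phase repair and checkpoint genes 1 was lower (4.35%, under the share over all probes), the helicase gene Blm (-0.38 ± 0.105, adjusted p = 0.0448).

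Mitosis genes, which act in the phase after replication, were also called in 1 direction. Of their 62 kept probes 13 were lower and 0 higher in P14 (21.0% lower, against 8.23% of all probes). The median was -0.17, and 54 of 62 lay below 0 (87.1%, against 50.6% of all probes). The P14 arrays lay wholly below the P1 arrays for 25 of the 62 mitosis probes and 12 of the 55 replication probes. Over all probes this share was 18.4%, and the replication count lay near it. Top2a, which untangles copied chromosomes, had 8.97, 8.99 and 9.09 in P14 against 9.90, 9.66 and 9.86 in P1 (-0.79 ± 0.0818, adjusted p = 0.00216), and Cdk1, the mitotic kinase, -0.78 ± 0.0809 (adjusted p = 0.00216). The difference between the replication and mitosis lists was not tested, and no probe carried the symbol Mki67 in the annotation used.

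**Figure D5:**
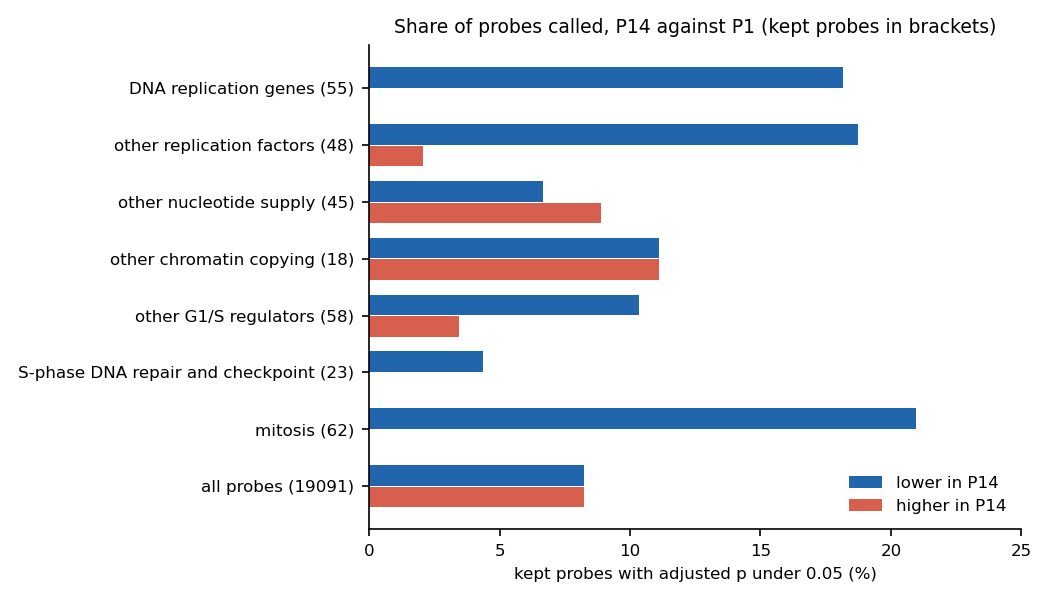
Share of kept probes (x axis, %) lower (blue) or higher (red) in P14 at an adjusted p under 0.05 for the replication genes, the related lists and all probes tested, with the number of kept probes in brackets. The replication set has 18.2% lower and 0% higher, the mitosis list 21.0% and 0%, and all probes 8.23% and 8.26%. The shares count probes: with the probes of each gene averaged, 3 of 35 replication genes were lower, against 946 of 10501 genes.

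The list of neutrophil and granulocyte precursor genes, 13 of 19 probes lower in P14, joins mature and immature stages, and its members did not all move one way: S100a9 was lower in P14 (-2.01, adjusted p = 0.00212) and Retnlg higher (1.63, adjusted p = 0.00163). Mpo, myeloperoxidase, a gene of early granulocyte stages, was chosen after its values were seen. With probe ILMN_1249030 it had 6.97, 6.93 and 6.89 in P14, all below the floor, against 8.31, 8.44 and 8.41 in P1. The filter kept this probe through the P1 arrays alone, the group where it is brighter, so no p-value is given for it. It is among the 19 kept probes of the list, so the count of lower probes may in part follow from the filter. The part of such cells in the replication values was not tested.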

How the data were processed

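Total RNA of sorted cells was hybridised to Illumina bead arrays, per the labels. The intensity values deposited by the authors are linear and had been quantile-normalized between the 6 arrays, since their sorted columns differed by at most 0.471%; background was left in (lowest value 96.7), so differences are understated, most for dim probes. What software did this is not given in the sources. A scanner table with 24 value columns, named by chip position and tied to no sample label, was not used, so detection p-values, chips and scans were not examined. Probes were named from the platform annotation: 34885 carried 1 gene symbol, 18 several and 10378 none, and all 37 replication symbols matched RefSeq genes through Entrez identifiers. The floor was the most frequent log2 value plus 3 SD of the values mirrored about it.

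Log2 intensities of the 19091 probes above the floor on at least 3 arrays were fitted in R 4.3.3 by limma 3.58.1 (lmFit, then eBayes) on group alone, with two-sided tests and Benjamini-Hochberg adjustment over all of them (threshold 0.05). Errors and 95% intervals are limma's, and the number of arrays limits their precision. The fit was tested on simulated data. The members and lists were chosen with earlier results of these data known. Values on every array are given for all probes past the threshold, the probe of highest mean in each role, genes whose probes differ in sign or call, and Gmnn, Cdt1 and E2f1; of each related list, 2 genes at most; others were chosen after their values were seen. Replicates numbered alike did not deviate together throughout (correlations of 0.136, 0.0676 and 0.123), so the numbers were not taken as pairs. Results were recomputed without each array, with array weights, with the replicate block, after normexp or cyclic loess, and under other filters, probe rules and variance models.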

Additional observations from a re-analysis of the deposited data

How the results depend on the processing

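The count of replication probes lower in P14 was 10, and 8 to 10 under the alternatives that kept all arrays and all probes of a gene. It was 7 of 35 genes with the brightest probe per gene and 3 of 35 with the mean of each gene's probes. Leaving out 1 array gave 4 to 9 lower and 0 to 1 higher. Over all 19091 probes, 1571 were lower and 1576 higher. These became 946 and 899 with the mean of probes and 1094 and 1011 with the brightest probe, where 10501 genes are tested. Without 1 array they were 686 to 1338 and 736 to 1428. With the replicate block 9 replication probes were lower, the call of Gins2 probe ILMN_1246270 being lost (adjusted p = 0.0689); it was also lost with trend and robust eBayes (0.108) and normexp (0.0683). The block changed no other replication call. No lower probe changed sign. After normexp the folds of the lower probes moved by 1.12 times at most.

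Of the probes that did not pass, 18 changed sign under at least 1 setting, all with a difference of at most 0.12. Without 1 array their log2 differences ran from -0.0428 to 0.0204 (Mcm3), -0.172 to 0.000109 (Mcm4), -0.0368 to 0.137 (Mcm7 ILMN_2673889), -0.0312 to 0.094 (Cdc6), -0.0595 to 0.0771 (Gmnn), -0.0357 to 0.0757 (Ccne1), -3.14e-05 to 0.241 (Gins2 ILMN_2547942), -0.0958 to 0.0700 (Pola2), -0.102 to 0.0716 (Pole), -0.173 to 0.0132 (Rfc2 ILMN_2424690), -0.000314 to 0.0716 (Rfc3), -0.0573 to 0.148 (Rpa1), -0.0922 to 0.0671 (Lig1 ILMN_2657356), -0.231 to 0.437 (Rrm1 ILMN_1258715), -0.0687 to 0.0873 (Tyms ILMN_2441895), -0.14 to 0.166 (Tk1 ILMN_2893926), -0.0127 to 0.0702 (Dut ILMN_2523963) and -0.202 to 0.0278 (Uhrf1). With array weights Pole (-0.0172) and Tk1 ILMN_2893926 (-0.0123) also changed sign. Signals near the floor limit what Gmnn, Ccne2, Dut, Rfc3, 1 Tyms probe, Lig1 ILMN_1213101 and Rpa2 ILMN_2543737, among others, can show.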
